A study of Homo sapiens with 6 samples.

Results

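Hot spots of ectopic CENP-A were defined as 1-Mb tiles with at least 50 kb under called CENP-A peaks in each of 2 siDNAJC9 libraries, outside the centromere. Of 2648 tiles on chromosomes 1 to 9 and 11 to 22, 250 were hot (9.44%), and the other 2398 are called other tiles. The centromere of each chromosome was stood in for by a 5-Mb window, the one richest in siNeg CENP-A replicate 1 peaks, and tiles that touched it were left out. Chromosomes 10 and X were not part of the definition.

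CENP-A is the variant of histone H3 that marks the centromere and on which the kinetochore is built, so that each chromosome has a single attachment site for the spindle. When CENP-A is in excess, some of it enters chromatin of the chromosome arms, where H3.1 or H3.3 would otherwise sit. DNAJC9 is a J-domain protein that binds H3–H4 and brings the HSP70 folding machinery to them.

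All libraries came from RPE1-Tet-GFP-CENP-A, a telomerase-immortalized line of retinal pigment epithelium in which DOX switches on a GFP-tagged copy of CENP-A. All groups carried this transgene and received DOX at 1 µg/ml for 48 h, starting 48 h after transfection with siNeg, the control siRNA, or siDNAJC9, so the siNeg cells also held CENP-A in excess. Chromatin was profiled by CUT&RUN, in which an antibody tethers a nuclease that releases the bound DNA, and for each siRNA there were replicates 1 and 3 with the CENP-A antibody and replicate 2 with IgG, the control for untargeted cutting. The lists hold places of peaks on T2T-CHM13, the complete human assembly, and nothing else: no height, read count or P value, and no measure of DNAJC9 itself, so depth and the efficiency of depletion are unknown here. For each siRNA, the peak caller used a single further IgG library, not analysed here, as the background of both CENP-A replicates. Its part in the places that the 2 replicates shared was not tested.

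Because the siDNAJC9 lists chose the hot tiles, their values there are a description. Hot tiles had 50 to 199 kb under peaks in siDNAJC9 replicate 1, with a median of 86 kb, and 50 to 164 kb in replicate 3, with a median of 68.5 kb. Other tiles had medians of 16 and 11 kb. Hot tiles made up 9.49% of the sequence and held 32.0% of the covered kb in replicate 1 and 34.2% in replicate 3. All hot tiles had a peak in each siDNAJC9 library, as the rule fixes, against 78.6% of all tiles in replicate 1 and 75.3% in replicate 3. Replicate 1 had the higher coverage in 209 hot tiles (83.6%, against 57.7% of all tiles), replicate 3 in 37 (14.8%, against 23.1%), and both were equal in 4. Mean coverage reached 100 kb in 59 hot tiles (2.23% of all tiles), and both libraries reached it in 29 (1.1%).

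**Figure D1:**
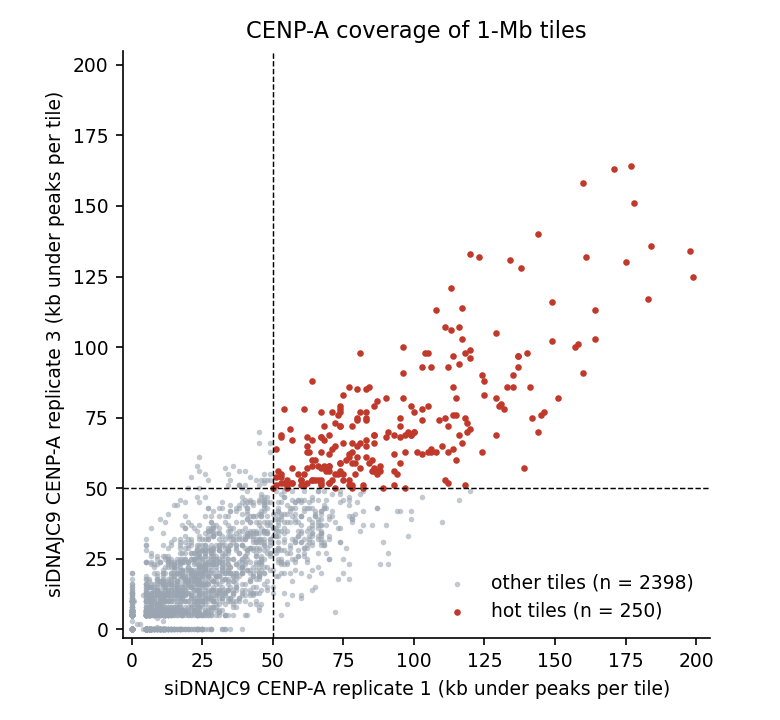
Each point is a 1-Mb tile, with kb under siDNAJC9 CENP-A peaks in replicate 1 on the horizontal axis and in replicate 3 on the vertical axis. Dashed lines mark the limit of 50 kb, and the 250 hot tiles (red) run on from the cloud of 2398 other tiles (grey) with no gap at the limit.

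The limit cut through a continuous range. The 5 tiles just inside it all had 50 kb in replicate 3, with 50 to 82 kb in replicate 1. The 5 tiles just outside all had 49 kb in replicate 3, with 66 to 120 kb in replicate 1. Ties were ordered by the lowest sum of both libraries inside the limit and by the highest sum outside it. Hot tiles on chromosomes 3 and 9, also with 50 kb in replicate 3, were thus not among the 5. They had 97 and 89 kb in replicate 1, so the 2 ranges of replicate 1 are not to be compared. The lower of both libraries lay between 50 and 54 kb in 46 hot tiles and between 45 and 49 kb in 61 other tiles. A further 251 tiles passed 50 kb in replicate 1 alone and 34 in replicate 3 alone.

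When a single siDNAJC9 replicate chose the tiles, the other replicate was free to differ. Of the 501 tiles with at least 50 kb in replicate 1 (18.9% of all), 250 also passed in replicate 3 (49.9%), against 10.7% of all tiles. Of the 284 tiles that passed in replicate 3, 88.0% passed in replicate 1, against 18.9% of all. None of the chosen tiles was empty in the other replicate: the lowest values were 5 kb in replicate 3 and 20 kb in replicate 1. Median coverage in the replicate that did not choose was 49 kb in replicate 3 and 81.5 kb in replicate 1, against 9 and 16 kb in the tiles left unchosen. The siNeg libraries had 0.423 kb per Mb (replicate 3) in the tiles chosen by siDNAJC9 replicate 1 and 1.86 kb per Mb (replicate 1) in those chosen by siDNAJC9 replicate 3, against 0.219 and 0.665 kb per Mb elsewhere.

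Hot tiles differed from other tiles more in the number of peaks than in their width. In siDNAJC9 replicate 1 there were 11.3 peaks per Mb in hot tiles and 2.97 in other tiles, a ratio of 3.81, while mean peak width was 8.41 and 7.13 kb, a ratio of 1.18. In replicate 3 the number was 9.52 against 2.24 peaks per Mb, a ratio of 4.25, and the width 7.78 against 6.68 kb, a ratio of 1.16. On the log2 scale, number made up 89.0% of the sum of both differences in replicate 1 and 90.5% in replicate 3. No peak in the lists was narrower than 5 kb, a floor that limits how far mean widths can fall. Over both libraries the number ratio was 4.03 ± 0.314 and the width ratio 1.17 ± 0.0103 (SD, n = 2 each).

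Broad peaks took a larger share in hot tiles. Peaks of at least 10 kb made up 21.6% of the peaks there in replicate 1 and 15.6% in replicate 3, against 9.86% and 5.90% in other tiles. Peaks of at least 20 kb numbered 70 of 2824 in hot tiles of replicate 1 and 26 of 2380 in replicate 3. Other tiles, with 7079 and 5343 peaks, held 21 and 5 such peaks. Among hot tiles, coverage followed number (Spearman's rho 0.88 in replicate 1 and 0.81 in replicate 3) more than mean width (0.49 and 0.34), as a description over 250 tiles that share their libraries. Number and mean width had a rho of 0.05 and -0.20 among hot tiles. In the 1599 other tiles with a peak in both libraries, coverage had a rho of 0.97 and 0.96 with number. With mean width it was 0.39 and 0.38 there, so the lead of number was not particular to hot tiles.

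**Figure D2:**
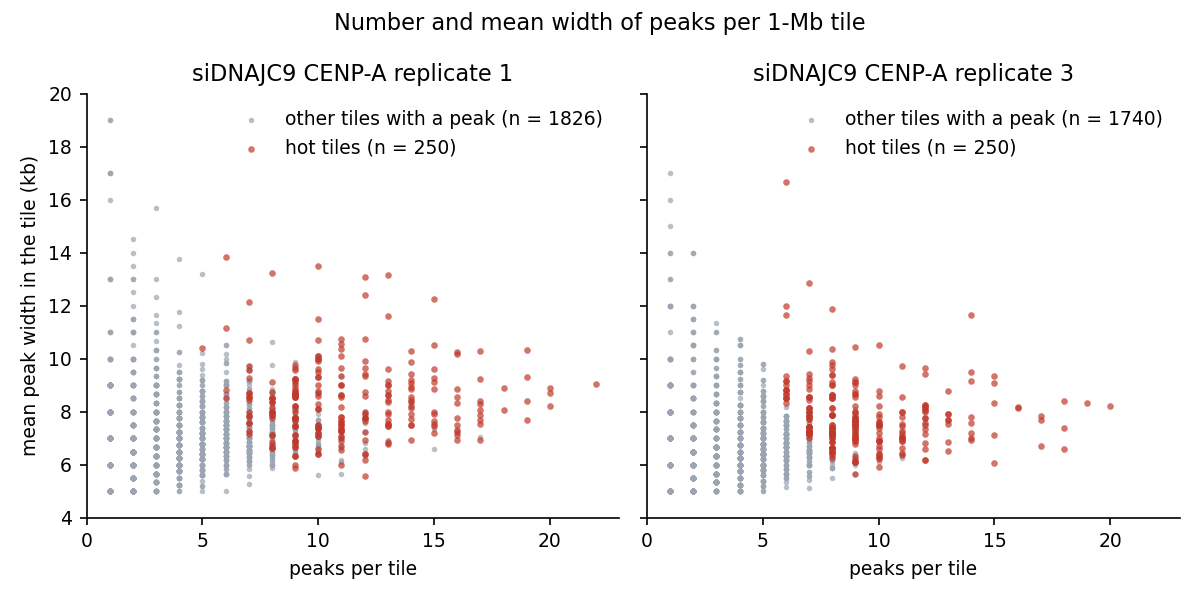
Each point is a 1-Mb tile with at least 1 peak, with the number of siDNAJC9 CENP-A peaks on the horizontal axis and their mean width in kb on the vertical axis, for replicate 1 (left) and replicate 3 (right). Hot tiles (red) lie toward the high end of number, with 5 to 22 peaks in replicate 1 and 6 to 20 in replicate 3, and overlap other tiles (grey), which reach 17 and 11, while their widths lie within the range of other tiles.

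The extremes, singled out after their values were seen, show both kinds. The tile on chromosome 12 from 46000001 to 47000000 had 19 peaks in replicate 1 and 20 in replicate 3, with mean widths of 9.32 and 8.20 kb, and its coverage of 177 and 164 kb had the highest mean of all tiles. On chromosome 9, from 21000001 to 22000000, only 12 and 6 peaks gave 157 and 100 kb, with mean widths of 13.1 and 16.7 kb, the widest mean among hot tiles. The tile on chromosome 15 from 57000001 to 58000000 had the narrowest mean, with 12 and 9 peaks averaging 5.58 and 5.67 kb, near the narrowest peak in the lists (5 kb). Its coverage was 67 and 51 kb.

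Peaks were spread through the hot tiles. With each tile divided into 10 parts of 100 kb, the median hot tile had a peak in 7 parts in replicate 1 and in 6 parts in replicate 3. The fullest part held a median of 31.2% of the covered kb in replicate 1 and 32.8% in replicate 3, and more than 50% in 8 and 18 tiles. The fullest part was the same in both libraries in 146 tiles (58.4%). The median gap between neighbouring peaks had a median of 40.5 kb in replicate 1 and 44 kb in replicate 3. These values of layout were taken in hot tiles only. Whether they are particular to hot tiles or follow from the number of peaks was not tested. Within hot tiles, 62.4% of the kb under peaks of replicate 3 also lay under peaks of replicate 1, which covered 9.50% of these tiles. In the other direction 48.7% was common. In other tiles, of which replicate 1 covered 2.12%, these shares were 46.5% and 32.9%. Relative to the cover of replicate 1, the common share of replicate 3 was 6.57 times in hot tiles and 22 times in other tiles, so the overlap was larger in hot tiles as a share and smaller relative to cover.

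The 250 hot tiles formed 186 runs of adjacent tiles. Of these, 134 were single tiles, 42 were pairs, 8 had 3 tiles and 2 had 4 tiles, the longest found. Hot tiles with a hot neighbour numbered 116 (46.4%). Of the 498 places next to a hot tile, 128 were hot (25.7%), beside the 9.44% of all tiles. A tile between 2 hot tiles counts for each of them. Mean coverage was 82.3 kb per Mb over single tiles, 88.2 over pairs, 86.7 over runs of 3 and 78.0 over runs of 4. Runs of at least 2 tiles averaged 87.2, and only 2 runs stand behind the lowest of these means, which were not tested.

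The run with the highest mean coverage lay on chromosome 3 (T2T-CHM13), from 101000001 to 103000000, on the long-arm side and 4.36 Mb from the centromeric window. Its first tile had 171 and 163 kb under peaks in siDNAJC9 replicates 1 and 3, and its second 199 and 125 kb. Over the run, 35 peaks of replicate 1 averaged 10.6 kb and 29 peaks of replicate 3 averaged 9.93 kb. The widest peak, from 101579001 to 101619000 in replicate 1, overlapped the widest of replicate 3, from 101578001 to 101606000. The siNeg lists had 21 kb in replicate 1 and 5 kb in replicate 3, and the IgG lists 42 kb (siNeg) and 17 kb (siDNAJC9), so both siDNAJC9 CENP-A libraries lay far above the other 4.

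The other 9 of the 10 hottest runs were single tiles. In order of mean coverage these lay on chromosome 6 from 56 to 57 Mb (184 and 136 kb in replicates 1 and 3), chromosome 7 from 117 to 118 Mb (160 and 158 kb), chromosome 8 from 119 to 120 Mb (175 and 130 kb) and chromosome 11 from 86 to 87 Mb (161 and 132 kb). Chromosome 14 from 62 to 63 Mb followed with 144 and 140 kb, and chromosome 11 from 12 to 13 Mb with 164 and 113 kb. The last 3 were on chromosome 12 from 65 to 66 Mb (134 and 131 kb), chromosome 14 from 55 to 56 Mb (149 and 116 kb) and chromosome 2 from 160 to 161 Mb (158 and 101 kb). Replicate 1 was the higher library in each of these 9 tiles, by as little as 2 or 3 kb on chromosomes 7 and 12. Runs were ranked by the mean over their tiles, so a cooler hot neighbour lowered the rank of a hotter tile. Among the tiles left out in this way were chromosome 12 from 46 to 47 Mb (mean 170.5 kb) and from 75 to 76 Mb (150 kb). Others were chromosome 3 from 152 to 153 Mb (166 kb) and chromosome 1 from 94 to 95 Mb (164.5 kb).

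Control coverage in the 10 hottest runs lay far below that of siDNAJC9 CENP-A but was not uniformly low. No siNeg CENP-A peak was called in 5 of the runs, a peak in replicate 1 only in 2, and peaks in both siNeg libraries in 3, with at most 10.5 kb per Mb. Among all single tiles, 84.9% had no siNeg CENP-A peak and 1.17% had one in both libraries. The siDNAJC9 IgG list had no peak in 4 of these runs and at most 12 kb per Mb in the others. Of all 2648 tiles, 643 had no siDNAJC9 IgG peak, and of the 250 hot tiles, 64. In 3 of these runs, on chromosomes 3, 14 and 2, siNeg IgG reached 21, 22 and 25 kb per Mb, against 7.58 in other tiles. In 6 of the 10, the widest peak of replicate 1 overlapped the widest of replicate 3, beside 4 of the 10 longest runs. The share over all 186 runs was not counted. All 10 lay at least 12 Mb from a chromosome end, while 4% of hot tiles and 16.6% of all tiles lay within 10 Mb of one. On the long-arm side of the window were 8 of the 10, beside 71.6% of hot tiles and 67.3% of all tiles.

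The 10 longest runs held 32 of the hot tiles, at 62.5 to 101.5 kb per Mb. They lay below the 10 hottest runs, which were picked for their coverage. The hotter of the 2 runs of 4 tiles lay on chromosome 12 from 24 to 28 Mb, with 370 and 297 kb under siDNAJC9 peaks of replicates 1 and 3, 22 and 0 kb in the siNeg replicates, and 57 and 112 kb in the siNeg and siDNAJC9 IgG lists. It contained the only hot tile in which the siDNAJC9 IgG list passed 50 kb, from 25 to 26 Mb, with 53 kb of IgG beside 103 and 78 kb of CENP-A. The other, on chromosome 1 from 182 to 186 Mb, had 315 and 266 kb with siDNAJC9, no siNeg CENP-A peak, and 34 and 19 kb of IgG.

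The 8 runs of 3 tiles lay on chromosomes 12, 11, 6, 5 (2 runs), 3, 21 and 8. The hottest of them, on chromosome 12 from 45 to 48 Mb, was uneven: its middle tile had 177 and 164 kb, and its flanking tiles 77 and 61 kb and 74 and 56 kb. On chromosome 8 from 96 to 99 Mb, the coolest, the tiles were alike, with 62 to 77 kb in replicate 1 and 51 to 59 kb in replicate 3. The run on chromosome 3 from 113 to 116 Mb was again led by its middle tile, with 138 and 128 kb beside 59 and 55 kb and 75 and 83 kb.

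The siNeg CENP-A lists took no part in choosing hot tiles, beyond the use of replicate 1 to place the windows. In these control cells, peaks covered 1.89 kb per Mb of hot tiles and 0.679 kb per Mb of other tiles in replicate 1, a ratio of 2.78. In replicate 3 the values were 0.488 and 0.234 kb per Mb, a ratio of 2.09. Mean coverage was 1.19 ± 0.99 kb per Mb in hot tiles and 0.457 ± 0.315 in other tiles (SD, n = 2), and the ratio 2.43 ± 0.491. Both libraries had more CENP-A in hot tiles, and an exact two-sided sign-flip permutation test over the 2 libraries gave p = 0.5, the smallest that 2 allow, so the design cannot reach a threshold of 0.05. With other tiles weighted by the chromosomes on which hot tiles lay, the ratios were 2.77 and 1.85. Of the other tiles, 1 had 54 and 75 kb in siNeg replicates 1 and 3, and it counts toward the values of the other tiles. Also counted there were 428 tiles with no siDNAJC9 CENP-A peak in either replicate, some of them empty in all 6 lists. What these empty tiles add to the ratios, here and for IgG, was not tested.

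Most hot tiles nevertheless had no siNeg peak. In replicate 1, 67 of the 250 had one (26.8%), against 12.6% of all tiles. In replicate 3, 21 had one (8.4%), against 3.7%. Both siNeg libraries had a peak in 10 hot tiles (4.0%, against 1.17% of all), and neither in 172 (68.8%, against 84.9%). Read the other way, 7.65% of tiles without a siNeg peak were hot, 18.4% of those with a peak in 1 siNeg library and 32.3% of the 31 with a peak in both. The difference in siNeg was in the number of peaks, with ratios of 2.64 and 2.39, while mean widths in hot tiles were 5.88 and 5.55 kb against 5.61 and 6.34 kb in other tiles.

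No hot tile reached 50 kb in a siNeg CENP-A library or in the siNeg IgG list, against 1 tile in each of the 3 lists among all tiles (0.0378%). The highest siNeg CENP-A values in a hot tile were 19 kb in replicate 1, on chromosome 5 from 37 to 38 Mb, and 10 kb in replicate 3. In all 250 hot tiles each siDNAJC9 CENP-A value exceeded each siNeg CENP-A value, which held in 69.0% of all tiles and which the rule nearly fixes. Each also exceeded the siDNAJC9 IgG value in all 250, against 50% of all tiles. The rule nearly fixes this too, since only 1 hot tile had 50 kb or more under siDNAJC9 IgG peaks. The 10 hot tiles with peaks in both siNeg libraries included a tile in each of 3 of the 10 hottest runs, on chromosomes 3, 14 and 12. The tile on chromosome 2 from 33 to 34 Mb had 9 kb in each siNeg library, beside 99 and 69 kb with siDNAJC9.

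Within hot tiles, a larger share of siNeg CENP-A than of IgG coverage fell under siDNAJC9 CENP-A peaks. Of the kb under siNeg CENP-A peaks, 44.3% in replicate 1 and 32.8% in replicate 3 lay under a peak of either siDNAJC9 CENP-A library, and these peaks together covered 12.3% of the hot tiles. By peaks, 39 of 80 and 10 of 22 siNeg peaks overlapped by at least 1 bp. The shares were 15.2% for kb under siNeg IgG peaks and 22.9% for siDNAJC9 IgG peaks. In other tiles, where siDNAJC9 peaks covered 2.92%, the shares were 15.1% and 26.9% for the siNeg CENP-A replicates, and 4.27% and 5.89% for the IgG lists. Relative to the cover of siDNAJC9 peaks, the siNeg CENP-A shares were 3.60 and 2.67 times in hot tiles and 5.18 and 9.21 times in other tiles. These are descriptions with few siNeg peaks behind them.

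**Figure D3:**
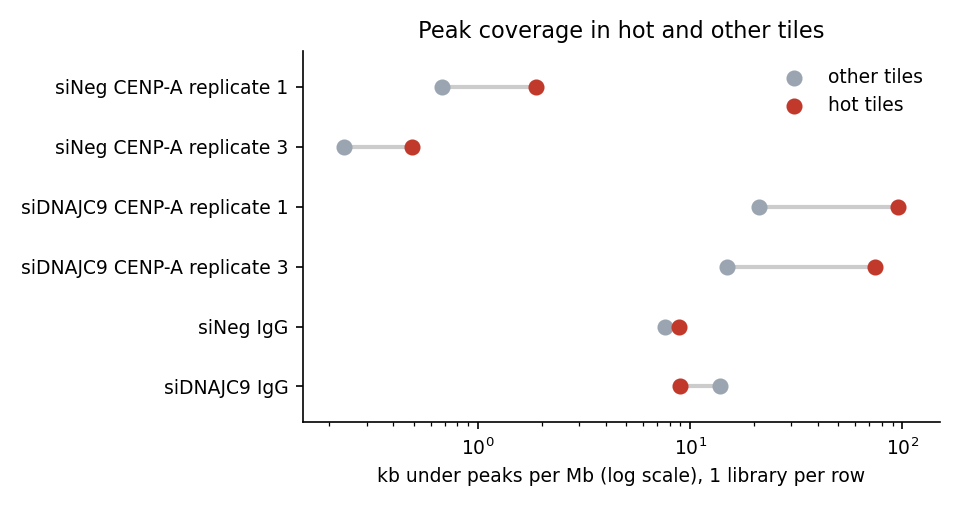
Each row is a library, with kb under peaks per Mb on a log axis in hot tiles (red) and other tiles (grey). The siDNAJC9 CENP-A rows differ by construction, both siNeg CENP-A libraries had more in hot tiles (1.89 against 0.679 and 0.488 against 0.234), and the IgG libraries differed in direction (8.89 against 7.58 with siNeg, 8.94 against 13.8 with siDNAJC9).

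Of the 2 IgG lists, that of siNeg was higher in hot tiles and that of siDNAJC9 lower. The siNeg IgG list covered 8.89 kb per Mb of hot tiles and 7.58 of other tiles, a ratio of 1.17. With siDNAJC9, IgG peaks took up 8.94 kb per Mb of hot tiles and 13.8 of other tiles, a ratio of 0.648. With 1 library each there is no test. Hot tiles held 10.8% (95% Wilson interval 9.85 to 11.9) of the siNeg IgG peaks and 6.63% (6.03 to 7.30) of the siDNAJC9 IgG peaks. Such intervals cover counting error only. They also take peaks as independent, although a single tile held up to 11 siNeg or 22 siDNAJC9 IgG peaks. An IgG peak was present in 81.6% of hot tiles with siNeg and 74.4% with siDNAJC9, against 72.0% and 75.7% of all tiles, and 16 hot tiles had none in either list (6.4%, against 8.16%).

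Hot tiles were rare where siDNAJC9 IgG was heavy. Of the 88 tiles (3.32%) with at least 50 kb under siDNAJC9 IgG peaks, 1 was hot (1.14%), and of the 333 with 25 to 49 kb, 11 were (3.30%). Below that the share hardly moved: 10.9% with 10 to 24 kb, 11.1% with 5 to 9 kb and 9.95% with none. With siNeg IgG the order was the opposite: 6.21% of tiles with no siNeg IgG peak were hot, 10.3% with 5 to 9 kb, 10.8% with 10 to 24 kb and 14.1% (9 of 64) with 25 kb or more. The classes with no IgG peak also hold tiles that were empty in all 6 lists and so could not be hot. The part of siNeg IgG and of such empty tiles in these shares was not tested. Mean siDNAJC9 CENP-A coverage of the 88 tiles rich in siDNAJC9 IgG was 7.96 and 5.76 kb per Mb in replicates 1 and 3. The siDNAJC9 IgG list was lower in hot than in other tiles on 16 of the 19 chromosomes with hot tiles, and the siNeg IgG list was higher on 15. Weighted by chromosome, the siDNAJC9 IgG ratio was 0.738, and among tiles at least 20 Mb from a chromosome end it was 0.834, so that the difference was smaller within chromosomes and away from the ends.

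Hot tiles lay on 19 of the 21 chromosomes. Chromosome 5 had the highest share, with 25 of 176 tiles (14.2%), followed by chromosomes 12 (13.3%), 1 (13.2%), 3 (12.8%) and 21 (12.5%). In number, chromosome 1 had the most, with 32. Chromosomes 16 and 19 had 0 of 91 and 0 of 56 tiles, with 49 and 33 kb as the highest value that both libraries reached, so chromosome 16 missed the limit by 1 kb. Chromosomes 20, 17 and 18 followed with 1.64%, 2.53% and 5.33%. On chromosomes 16, 17, 19, 20 and 22 together, 6 of 333 tiles were hot, and these chromosomes held 44 of the 88 tiles with at least 50 kb of siDNAJC9 IgG. They were the chromosomes with the highest siDNAJC9 IgG coverage of the 21, so their number of IgG-rich tiles is not independent of the grouping. Chromosomes 7 and 18, outside the grouping, had lower hot shares than chromosome 22 and less siDNAJC9 IgG than any chromosome in it. The part of IgG in the low shares of these chromosomes was not tested.

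**Figure D4:**
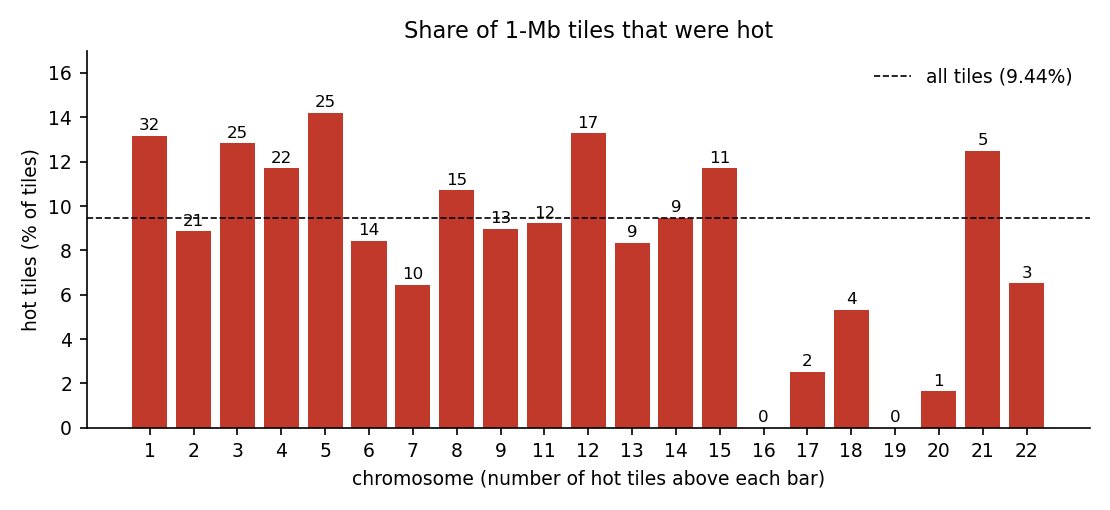
Bars give the percentage of 1-Mb tiles outside the centromeric window that were hot on each chromosome, with the number of hot tiles above each bar and the share over all chromosomes (9.44%) as a dashed line. Chromosomes 16 and 19 had none, and chromosomes 1, 3, 5, 12 and 21 lay above 12%.

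Along the chromosome, few hot tiles lay near the ends. Of 231 tiles within 5 Mb of a chromosome end, 1 was hot (0.433%), and of 209 tiles from 5 to 10 Mb, 9 were (4.31%). The share was 7.24% from 10 to 20 Mb and 11.6% beyond. The siDNAJC9 IgG list went the opposite way, with 33.8 kb per Mb within 5 Mb of an end, 18.9 from 5 to 10 Mb, 14.4 from 10 to 20 Mb and 10.0 beyond. The siNeg IgG list had 5.82 kb per Mb within 5 Mb of an end, 6.75 from 5 to 10 Mb and 7.89 from 10 to 20 Mb. The part of IgG in the scarcity of hot tiles near the ends was not tested. Near the centromeric window there was less of a difference: 6.19% of tiles within 5 Mb were hot, 9.57% from 5 to 10 Mb and 9.74% beyond. On the short-arm side 8.21% of tiles were hot and on the long-arm side 10.0%.

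Beyond a hot tile siDNAJC9 coverage was lower, which the rule nearly fixes because hot neighbours count as hot tiles. Other tiles next to a hot tile, which by definition missed the limit, had 30.9 kb per Mb in siDNAJC9 replicate 1 and 23.1 in replicate 3, and tiles 2 Mb away 26.2 and 16.9. From 3 to 10 Mb the values stayed between 21.1 and 23.4 kb per Mb in replicate 1 and between 15.1 and 16.9 in replicate 3. They were 14.1 and 10.0 beyond 10 Mb. In siNeg cells the adjacent tiles had 0.654 and 0.166 kb per Mb in replicates 1 and 3, against 1.89 and 0.488 in hot tiles. At 2 Mb the values were 1.06 and 0.408, so that siNeg coverage did not fall evenly with distance. siDNAJC9 IgG rose from 8.94 kb per Mb in hot tiles to 18.0 beyond 10 Mb, and siNeg IgG went from 8.89 to 6.20.

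**Figure D5:**
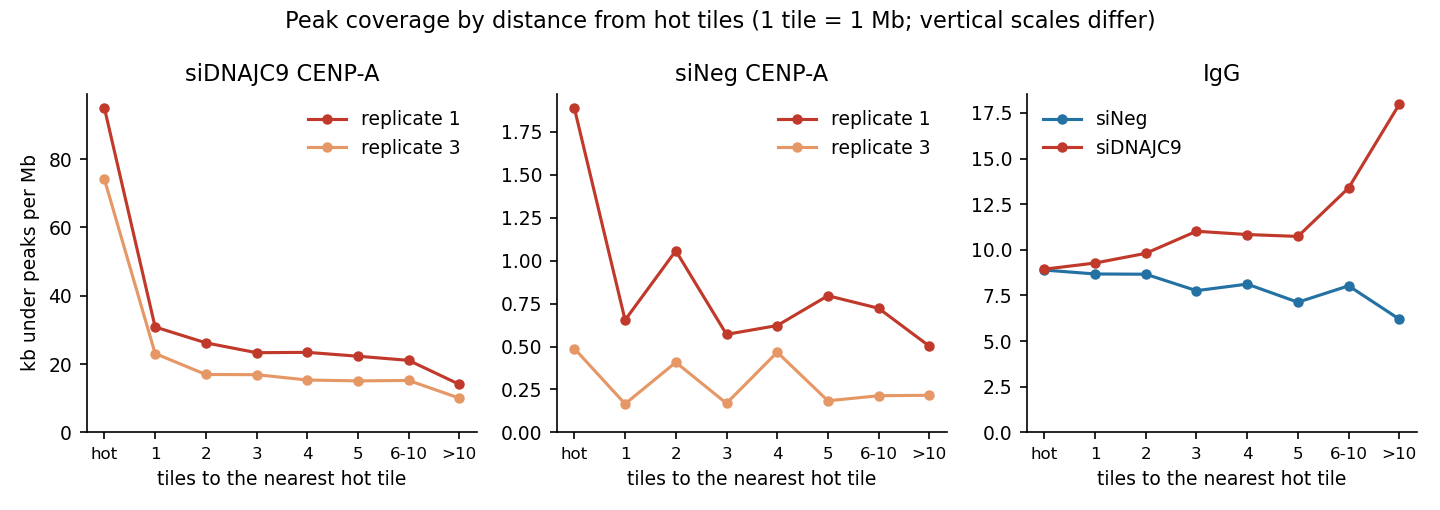
Kb under peaks per Mb are plotted against the distance of a tile from the nearest hot tile on its chromosome, in tiles of 1 Mb, for siDNAJC9 CENP-A (left), siNeg CENP-A (middle) and IgG (right), each line a library and each panel with its own scale from 0. CENP-A coverage in each of the 4 libraries is highest in the hot tiles, which the rule nearly fixes for siDNAJC9. For siNeg replicate 3 the lead is small (0.488 against 0.467 at 4 tiles). The siDNAJC9 IgG library is lowest in the hot tiles (8.94) and highest beyond 10 tiles (18.0).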

How the data were processed

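CENP-A and IgG CUT&RUN peak lists of 6 libraries were used, grouped by sample title. The authors trimmed reads with Cutadapt, aligned them with bowtie2 to T2T-CHM13 and to E. coli for the spike-in, removed duplicates with Picard and called broad peaks per library with GoPeaks and spike-in normalization. The deposited lists give a start and end per peak, all in whole kb, and no score, so the calls were taken as given and read depth is unknown. A change in control signal can add or remove a peak.

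Windows were placed in steps of 1 kb (the middle one of tied windows), and the chromosome end was the highest position in any list. Peaks were counted in the tile of their midpoint. The methods were checked on simulated lists with planted hot tiles. Python 3.11.15, numpy 2.4.6, pandas 2.3.3, scipy 1.17.1 and matplotlib 3.10.9 were used. Only the siNeg coverage ratio was tested. Named places are the 10 hottest and 10 longest runs, 5 tiles on each side of the limit and all chromosomes. The members and these rules were chosen with earlier results of these data known. Genes, GC content and sequences of hot tiles were not analysed here, because the reference used was of another build, GRCh38.p14. Alternatives varied the limit, tile start, peak width, IgG overlap, windows and replicates.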

Additional observations from a re-analysis of the deposited data

Results flagged for a closer look

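The IgG lists moved in opposite directions between hot and other tiles, with a ratio of coverage of 1.17 with siNeg and 0.648 with siDNAJC9. With 1 library for each siRNA the difference was not tested.

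Chromosome 10, left out of the definition, had 39 of 129 tiles past the same limit in both siDNAJC9 CENP-A libraries (30.2%), in 17 runs of which the longest had 8 tiles, and no tile past it in either siNeg CENP-A library. Chromosome X had 0 of 148 tiles past the limit, with 41 kb as the highest value reached by both siDNAJC9 libraries.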

How the results depend on the processing

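Wherever it was recomputed, the siNeg CENP-A ratio (2.41 as the geometric mean of both libraries) kept its direction, with values of 1.82 to 2.87, as did the siNeg IgG ratio (1.09 to 1.27) and the siDNAJC9 IgG ratio. These ratios were not recomputed with the mean of both libraries as the limit or with peaks counted in every tile they touch, and the IgG ratios have no value in tiles without IgG peaks. The lowest siNeg ratio came with peaks of at least 7 kb. The highest came from the 16 hot tiles and 200 other tiles without an IgG peak, where siNeg replicate 3 rests on very few peaks. Those other tiles include the ones that were empty in all 6 lists. The number of hot tiles depended on the limit: 86 tiles in 75 runs passed 75 kb, with a width ratio of 1.22 and a siDNAJC9 IgG ratio of 0.582. With peaks of at least 7 kb, 111 tiles in 97 runs were hot, all among the 250, with a number ratio of 5.62 and a siDNAJC9 IgG ratio of 0.438. That ratio was 0.738 with other tiles weighted by chromosome and 0.834 at 20 Mb or more from a chromosome end. Leaving out a siDNAJC9 replicate gave 284 to 501 hot tiles, 209 to 331 runs and a width ratio of 1.15 to 1.17, where 501 is the count without replicate 3. With the mean of both libraries at 50 kb or more, 371 tiles in 258 runs were hot. The weighting by chromosome, the distance from ends, the mean of both libraries and the tiles without IgG were chosen after seeing the data. No paired analysis was possible because no result here comes from a test between siRNAs: replicates 1 and 3 occur in both, but siDNAJC9 coverage chose the tiles. Without read counts, signal under the caller's threshold in siNeg cells cannot be seen.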
